A study of Homo sapiens with 12 samples.

Results

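Transcripts of 9 enzymes of the mevalonate and cholesterol synthesis pathway were followed in the human hepatocellular carcinoma line HepG2 at 0, 5, 10, 30 and 240 min of insulin stimulation. The enzymes were HMGCS1, MVK, MVD, IDI1, FDPS, FDFT1, SQLE, LSS and CYP51A1, picked by name out of 26364 genes in the deposited table. Earlier results of these data were known when the 9 were chosen, so their counts beside those of all genes are descriptive. RNA-seq was done on 2 replicates at each of the 5 times, which gave 10 libraries, and chromatin immunoprecipitation of the insulin receptor (IR) was done in 1 library. According to the methods, HepG2 cells were kept without serum, then held in a low concentration of insulin, washed, and stimulated. All 10 RNA-seq libraries carry a treatment label of 3 nM insulin for 5 min, those at 0 min included, so the times used here come from the library titles and the concentration of the time course is uncertain. The IR library is labelled as held in low insulin, washed and then given 3 nM insulin, with no time stated, and its input library was not used. The RNA-seq labels describe a DNA extraction and the IR labels an RNA kit, so the protocol texts of the assays appear to be exchanged. Every group is this single cancer cell line without a genetic change, and no library analysed here comes from cells left without insulin for 240 min, so time in culture and insulin cannot be told apart. P-values measure the spread between these libraries.

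Cholesterol is built from acetyl-CoA. HMGCS1 makes HMG-CoA, from which mevalonate is formed, and MVK, MVD and IDI1 turn mevalonate into the isoprene units that FDPS joins into farnesyl diphosphate. FDFT1 joins farnesyl diphosphate into squalene, SQLE oxidizes squalene, LSS closes it into lanosterol, and CYP51A1 removes a methyl group from lanosterol. Hepatocytes are a main site of this synthesis, and the genes are known targets of the transcription factor SREBP2, which is held back in the endoplasmic reticulum by INSIG proteins when sterols are plentiful. Near the starts of such genes SREBP2 is known to act together with NF-Y, which binds CCAAT.

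The DNA just before the gene is shown for HMGCS1 and IDI1, which had the largest rises at 240 min, for MVD, for LSS, which did not pass the test against 0 min, and for FDPS, which held the only IR peak. Each stretch comes from the GRCh37 (hg19) genome, reads 5′ to 3′ on the strand of the gene and lies within 250 bases before the gene as the deposited tables bound it, outside annotated untranslated regions. Capitals mark CCAAT, on either strand (ATTGG is its reverse), and TCACNCCAC, a form of the sterol regulatory element.
HMGCS1, chr5:43313655-43313822, minus strand: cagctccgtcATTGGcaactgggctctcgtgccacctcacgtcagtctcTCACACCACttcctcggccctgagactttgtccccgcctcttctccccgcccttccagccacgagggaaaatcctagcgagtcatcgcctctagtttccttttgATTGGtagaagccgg
IDI1, chr10:1095162-1095284, minus strand: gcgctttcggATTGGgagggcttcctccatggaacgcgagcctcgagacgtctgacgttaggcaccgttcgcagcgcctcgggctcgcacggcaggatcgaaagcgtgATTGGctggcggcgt
MVD, chr16:88729570-88729668, minus strand: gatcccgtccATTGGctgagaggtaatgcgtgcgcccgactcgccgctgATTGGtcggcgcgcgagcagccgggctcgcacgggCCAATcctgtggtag
LSS, chr21:47648824-47648988, minus strand: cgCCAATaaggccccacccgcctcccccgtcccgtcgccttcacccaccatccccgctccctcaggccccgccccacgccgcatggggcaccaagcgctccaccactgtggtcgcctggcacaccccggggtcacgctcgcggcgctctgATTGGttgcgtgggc
FDPS, chr1:155278380-155278538, plus strand: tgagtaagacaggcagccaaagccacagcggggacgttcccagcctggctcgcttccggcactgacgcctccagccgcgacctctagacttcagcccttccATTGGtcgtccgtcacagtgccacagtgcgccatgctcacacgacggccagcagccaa
HMGCS1 held 2 copies of CCAAT and 1 TCACNCCAC, IDI1 and LSS held 2 copies of CCAAT and MVD held 3. FDPS held 1, but only the 159 bases shown were searched for it, against 250 for the others, so its count is not comparable. Copies of CCAAT thus stood before genes that rose at 240 min and before genes that did not pass.

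In RefSeq promoter windows on GRCh38.p14, from 250 bases before to 50 after a start, 7 of the 9 enzymes had 10 windows, and MVK and CYP51A1 were searched there too. CCAAT was found on either strand in 7 of these 10 windows, belonging to 6 of the 7 enzymes, against 34.6% of 35116 windows of all genes. In these windows of equal length FDPS held 3 copies, MVK 5, MVD 3, LSS 1 and CYP51A1 0. The windows of HMGCS1 held 2 and 0 copies, and those of IDI1 held 0, 3 and 2. GGGCGG, the Sp1 motif, was in 10 of 10 windows, against 45% of all windows. TCACNCCAC was in 0 of 10, against 1.13% of all windows. The copy printed above for HMGCS1 thus lies outside its RefSeq windows. The 0 of 10 describes these windows and not the DNA beyond them. Matches of different motifs may overlap, and a match describes the letters, not binding.

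Libraries held 18347109 to 45005769 reads counted on genes, with the second replicate at 0 min the deepest. Values are given as CPM, reads of a gene scaled to library size after TMM normalization, which makes each value relative to the rest of the library. Those of the marker genes in this paragraph are scaled to library size alone, without TMM. The liver markers ALB, APOA1, APOB, TF, TTR, SERPINA1 and HNF4A were high in all 10 libraries, from 142 CPM for TTR upward, as were AFP and GPC3 of liver cancer. The summed levels of 3 immune, 3 endothelial and 3 fibroblast markers were 0.245 to 0.738, 2.43 to 4.36 and 0.985 to 2.25 CPM, with PTPRC at 0 in 10 libraries, CD3E at 0 in 9 and DCN at 0 in 8. The 2 replicates of each time were separate libraries by their counts, since a chi-square test of their counts gave 2.86 to 6.46 per degree of freedom.

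The 2 libraries at 0 min stood apart from each other in these enzymes. All 9 were higher in replicate 1 than in replicate 2, by 0.18 (SQLE) to 0.37 (MVD) on the log2 scale, or by 13.2% to 29.5% in CPM. The median gap of the enzymes was 0.26, above the gap of 98.8% of 10387 genes averaging 5 CPM or more, and 9 of the 9 lay above the 95th percentile of those genes, 0.18. TMM places the median gap over genes near 0 (here -0.00016), so the enzymes' gap is relative to the other genes. At 5, 10, 30 and 240 min the median gap was -0.019, -0.074, 0.15 and 0.050, with 4, 3, 8 and 7 of 9 enzymes higher in replicate 1. Replicates are only numbered, and which of the pair is nearer to unstimulated cells cannot be told from 2 libraries, so the fold changes of the 9 enzymes against 0 min are given below with and without each of them, as medians up to 30 min, and so are the counts of the other pathway genes at 240 min.

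**Figure D1:**
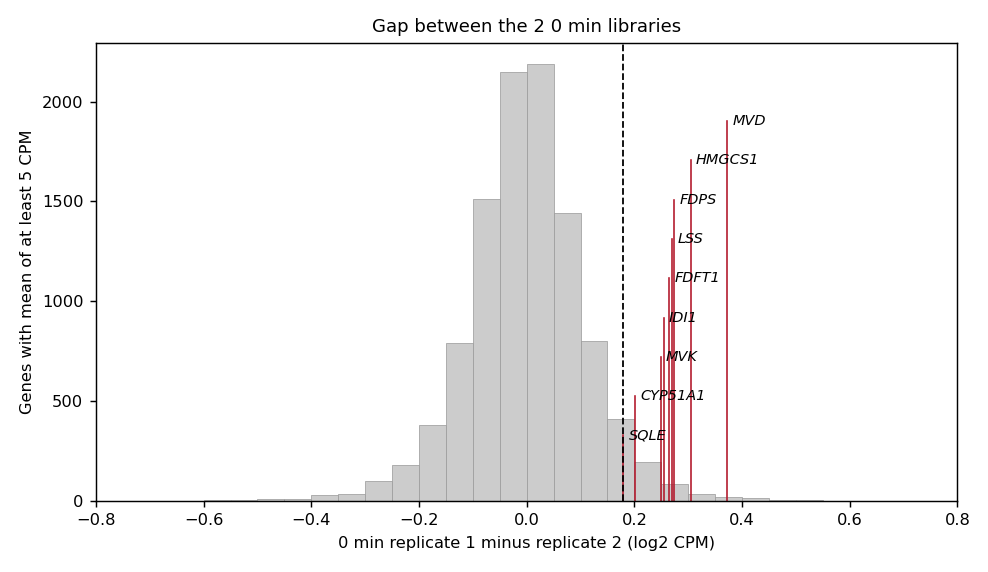
Difference between replicate 1 and replicate 2 at 0 min (log2 CPM, horizontal axis) over 10387 genes (grey bars, number of genes), with the 9 enzymes as red lines of arbitrary height and the 95th percentile of the genes, 0.18, as a dashed line. All 9 enzymes lie to the right of that line, from 0.18 to 0.37.

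At 240 min, 7 of the 9 enzymes had risen over 0 min and 0 had fallen (edgeR quasi-likelihood test, adjusted p under 0.05 over 13852 genes). The rises were those of HMGCS1, IDI1, MVK, MVD, SQLE, FDFT1 and CYP51A1. Of all genes tested, 41% passed this test and 20.6% passed it as rises. The median log2 fold change of the enzymes was 0.39, and that of all genes was -0.0026. Both libraries at 240 min lay above both at 0 min for the same 7 enzymes, as for 34.8% of all genes, and above all 8 other libraries for those 7, as for 23.4% of all genes. FDPS and LSS overlapped with 0 min. Together the 9 enzymes took 0.339% and 0.282% of the reads on genes at 0 min, 0.270% to 0.333% at 5 to 30 min and 0.501% and 0.484% at 240 min. The largest part of that rise was HMGCS1, from a mean of 896 CPM at 0 min to 1972 CPM at 240 min. In bulk RNA a change in the cells that carry a transcript and a change of its amount per cell cannot be told apart.

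HMGCS1 (chr5:43287572-43313614), the cytosolic HMG-CoA synthase, had the largest rise of the 9. Its level was 990.3 and 802 CPM before insulin (0 min), 874 and 896 after 5 min, 937 and 994 after 10 min, 849 and 765 after 30 min and 2045 and 1898 after 240 min. The 8 earlier libraries thus spanned 765 to 994 CPM, and both libraries at 240 min were far outside that span. From means of 896 to 1972 CPM, the log2 fold change at 240 min was 1.14 ± 0.076 (SE, n = 2 per time, edgeR adjusted p = 2.03e-09), which ranked 166 of 13852 genes.

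MVK (chr12:110011500-110035075), mevalonate kinase, had the lowest TPM of the 9 at 0 min. It measured 35.7 and 30.0 CPM before insulin (0 min), 27.6 and 28.0 after 5 min, 33.2 and 32.1 after 10 min, 30.0 and 25.8 after 30 min and 47.3 and 49.3 after 240 min. Both values at 240 min stood above all others. Against 0 min MVK rose by a log2 fold change of 0.57 ± 0.079 (SE, edgeR adjusted p = 1.04e-05). MVD (chr16:88718348-88729557), which decarboxylates the diphosphate of mevalonate, measured 91.9 and 71.0 CPM before insulin (0 min), 70.0 and 63.6 after 5 min, 80.5 and 84.9 after 10 min, 72.1 and 61.2 after 30 min and 115 in both libraries after 240 min. It had the widest gap at 0 min, yet both libraries at 240 min were higher than the upper of that pair. For MVD the log2 fold change was 0.51 ± 0.088 (SE, edgeR adjusted p = 0.000111).

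IDI1 (chr10:1085964-1095061), which isomerizes isopentenyl diphosphate, had the second largest rise. It measured 259 and 217 CPM before insulin (0 min), 227 and 237 after 5 min, 237 and 257 after 10 min, 217 and 219 after 30 min and 461 and 434 after 240 min. The earlier libraries stayed between 217 and 259 CPM. IDI1 rose by a log2 fold change of 0.91 ± 0.065 (SE, edgeR adjusted p = 4.45e-09), a 1.89-fold rise, which ranked 321 of 13852. Its paralog IDI2 had 0 or 1 count in each library.

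FDPS (chr1:155278539-155290457), farnesyl diphosphate synthase, stands between IDI1 and FDFT1 in the pathway and did not pass the test. Its level was 273 and 226 CPM before insulin (0 min), 228 and 210.4 after 5 min, 249 and 246 after 10 min, 229.8 and 193 after 30 min and 232 and 224 after 240 min. Both libraries at 240 min fell inside the range of the other 8. Its log2 fold change was -0.13 ± 0.077 (SE, edgeR adjusted p = 0.200). The annotation holds 8 FDPS pseudogenes, against 3 each for IDI1 and CYP51A1 and 0 for the other 6 enzymes, so the split of FDPS reads among copies is uncertain.

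FDFT1, squalene synthase, measured 695 and 579 CPM before insulin (0 min), 591 and 573 after 5 min, 658 and 692 after 10 min, 595 and 546 after 30 min and 802 and 775 after 240 min. Replicate 1 at 0 min and replicate 2 at 10 min came nearest to the level at 240 min. FDFT1 rose by a log2 fold change of 0.31 ± 0.068 (SE, edgeR adjusted p = 0.00112). SQLE, squalene epoxidase, a rate-limiting step of the pathway, measured 489.6 and 432 CPM before insulin (0 min), 448 and 477 after 5 min, 451 and 470.4 after 10 min, 432 and 408 after 30 min and 633 and 569.7 after 240 min. Its pair at 0 min was the closest of the 9, and both values at 240 min exceeded the rest. SQLE rose by a log2 fold change of 0.39 ± 0.063 (SE, edgeR adjusted p = 6.89e-05).

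LSS (chr21:47608360-47648738), lanosterol synthase, measured 211 and 175 CPM before insulin (0 min), 168 and 159 after 5 min, 198 and 193 after 10 min, 183 and 154 after 30 min and 204 and 201 after 240 min. The libraries at 240 min fell between the pair at 0 min, and the log2 fold change was 0.076 ± 0.076 (SE, edgeR adjusted p = 0.447). CYP51A1 (chr7:91741463-91764059), lanosterol demethylase, measured 369.8 and 321 CPM before insulin (0 min), 342 and 360.3 after 5 min, 337 and 355 after 10 min, 319 and 304 after 30 min and 424 and 398 after 240 min. Both values at 240 min were above all others, by a narrow margin over replicate 1 at 0 min. Its log2 fold change was 0.25 ± 0.061 (SE, edgeR adjusted p = 0.00233), the smallest of the 7 rises.

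**Figure D2:**
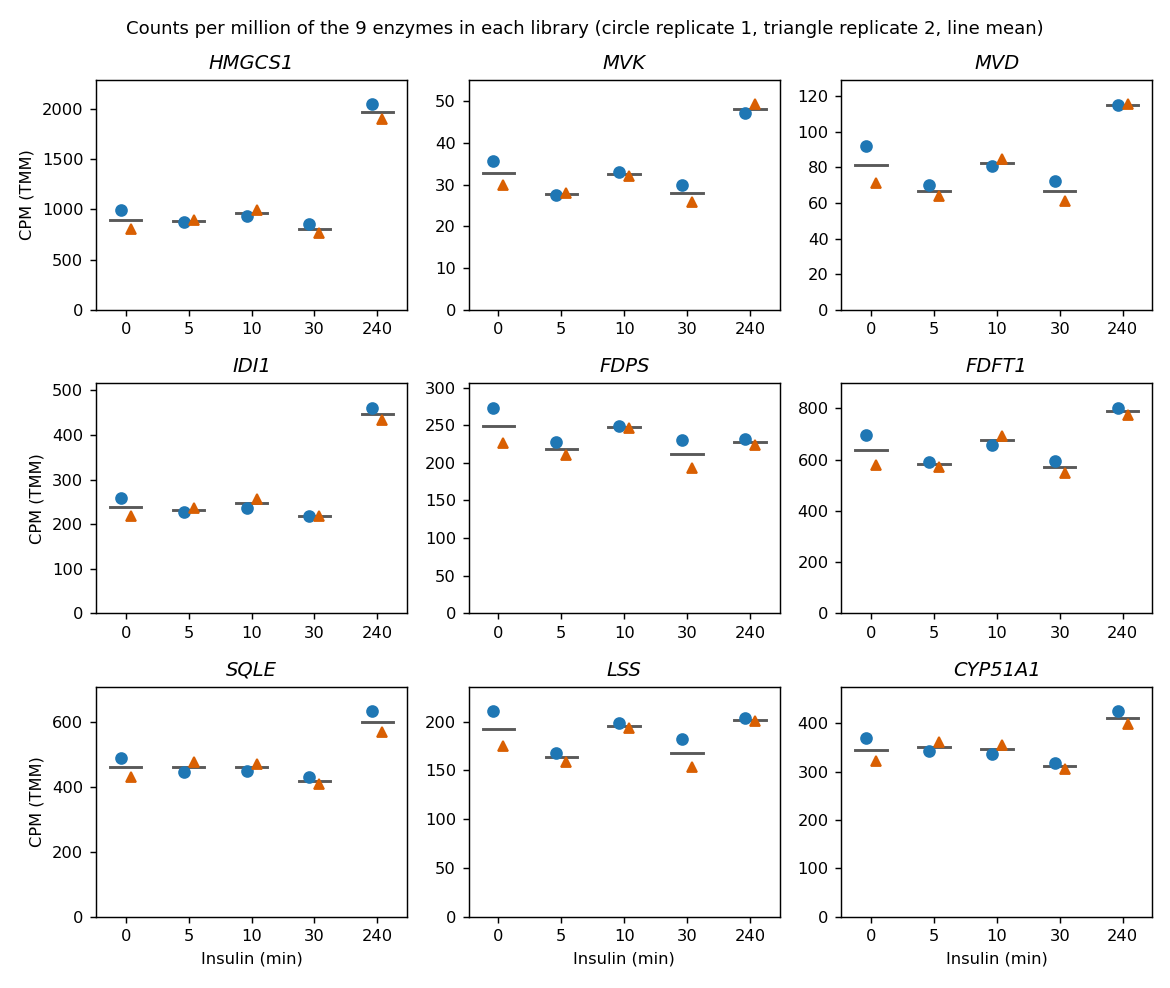
CPM after TMM normalization (vertical axis, from 0, own scale per panel) of the 9 enzymes against minutes of insulin (horizontal axis, categories), with replicate 1 as circles, replicate 2 as triangles and the mean of the 2 as a line. HMGCS1 moved from 896 CPM (mean at 0 min) to 1972 CPM at 240 min, whereas FDPS and LSS at 240 min stayed within the range of the earlier libraries.

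In the first 30 min no enzyme passed the edgeR test against 0 min. At 5 min 0 of 9 passed, with 0% of all genes called, at 10 min 0 of 9 with 0.137% called, and at 30 min 0 of 9 with 0.332% called. At an unadjusted p under 0.05 the counts were 4 of 9 at 5 min (14.3% of all genes), 0 of 9 at 10 min (5.13%) and 7 of 9 at 30 min (8.12%), and DESeq2 called 0 of 9 at each of the 3 times. The median log2 fold changes were -0.13, 0.028 and -0.16, against 8.3e-05, -0.0014 and -0.0050 over all genes. With scaling to the ERCC spike-ins, control transcripts added to the RNA, they were -0.21, -0.31 and -0.29, against -0.083, -0.33 and -0.13 over all genes. At 10 min the enzymes' median thus lay within 0.03 of that of all genes under both scalings. Spike-ins took 1.73% of the reads in replicate 1 at 10 min and 2.36% in replicate 2, the highest share of all libraries. At 5 min the lowest values were those of MVD (-0.27), LSS (-0.23) and MVK (-0.22). At 30 min all 9 values were negative, from -0.12 for IDI1 to -0.27 for MVD. The lowest edgeR adjusted p was 0.253 at 5 min, 0.976 at 10 min and 0.402 at 30 min. Taking the mean of 5, 10 and 30 min against 0 min, a comparison added after seeing the data, 0 of 9 passed in edgeR, with 0.0866% of all genes called. Without replicate 1 at 0 min the medians at 5, 10 and 30 min were 0.0079, 0.16 and -0.045 and 0 of 9 passed at each time. Without replicate 2 they were -0.26, -0.095 and -0.30, and MVD passed as a fall at 30 min (-0.46, edgeR adjusted p = 0.0197, with 0.304% of all genes called). The sign of the median at 5 and 10 min thus turned with the 0 min library used.

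Between 10 and 30 min all 9 enzymes were lower, and the comparison was known from earlier results when it was listed. Both libraries at 30 min lay under both at 10 min for 9 of 9 enzymes, as for 16.3% of all genes. The log2 fold changes ran from -0.13 (SQLE) and -0.15 (CYP51A1) to -0.26 (HMGCS1) and -0.30 (MVD), with a median of -0.22. All 9 had an unadjusted p under 0.05, as did 3.91% of all genes, but 0 of 9 passed after adjustment over 13852 genes (edgeR, lowest adjusted p = 0.997), with 0.00722% called. Within the 30 min pair, 8 of 9 enzymes were lower in replicate 2, and with that library left out the median was -0.12, against -0.34 with replicate 1 left out. With no filter on low counts, 5 of 9 passed as falls in edgeR (HMGCS1, MVD, FDPS, FDFT1 and LSS), with 0.199% of the 20553 genes then tested called. With scaling to the ERCC spike-ins the median was -0.028, with 3 of 9 values above 0, against 0.20 over all genes.

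The rises at 240 min depended on the 0 min library used. Without replicate 1 at 0 min, the higher of the pair, 8 of 9 passed (edgeR, 33.2% of all genes called), since LSS reached 0.21 (adjusted p = 0.0426), and FDPS stood at 0.010. Without replicate 2, 6 of 9 passed (27.6% of all genes called), 5 of them rises. FDFT1 (0.18, edgeR adjusted p = 0.0524) and CYP51A1 (0.15, edgeR adjusted p = 0.0940) no longer passed, and FDPS passed as a fall (-0.26, edgeR adjusted p = 0.0178). HMGCS1 ranged from 0.99 to 1.30, IDI1 from 0.79 to 1.04, MVK from 0.43 to 0.68, MVD from 0.32 to 0.69 and SQLE from 0.30 to 0.47 between the 2 fits, and these 5 passed in both. In these fits the lone library at 0 min was assumed to vary like the other times. Depth was tested by thinning all libraries to the smallest, after which the median log2 fold change of the 9 enzymes was 0.40, against 0.39 at full depth.

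Values at 240 min were also compared with later times than 0 min. Against 30 min, 8 of 9 enzymes rose (edgeR, 38.2% of all genes called, 19.8% as rises), with both libraries above both at 30 min for 8 of 9, as for 33.7% of all genes. The log2 fold changes were 1.29 for HMGCS1, 1.04 for IDI1, 0.78 for both MVK and MVD, 0.52 for SQLE, 0.47 for FDFT1, 0.40 for CYP51A1 and 0.26 for LSS. FDPS stood at 0.10 (edgeR adjusted p = 0.318). LSS, with an edgeR adjusted p of 0.00983, no longer passed without replicate 2 at 30 min (0.15) or without replicate 1 at 240 min (0.25), nor with DESeq2 (0.26, adjusted p = 0.0774). FDPS passed without replicate 1 at 30 min (0.23, edgeR adjusted p = 0.0437) and was at -0.014 without replicate 2. Against the mean of 5, 10 and 30 min, also added after seeing the data, the same 8 enzymes passed (edgeR, 45.4% of all genes called). There HMGCS1 was at 1.16 ± 0.058, LSS at 0.21 ± 0.062 and FDPS at 0.013 ± 0.063 (SE). In the test of any change over the 5 times, which does use the 0 min libraries, 8 of 9 passed (edgeR, 38.3% of all genes called), all but FDPS (edgeR adjusted p = 0.0589). The comparisons at 240 min share the libraries at 240 min.

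**Figure D3:**
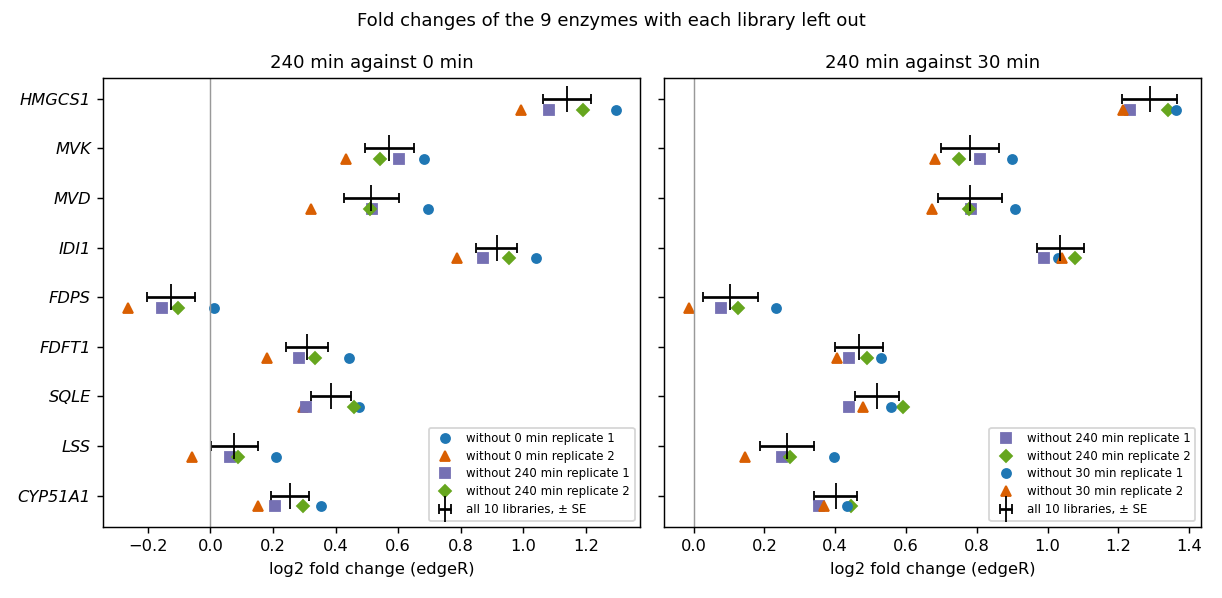
Log2 fold change (horizontal axis, edgeR) of each of the 9 enzymes at 240 min against 0 min (left) and against 30 min (right), with all 10 libraries (black, bars are SE) and with 1 library of the compared times left out (coloured symbols). On the left, leaving out replicate 2 at 0 min moved all 9 values down and leaving out replicate 1 moved all 9 up, with LSS from -0.060 to 0.21.

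The 92 ERCC spike-ins took 1.59% to 2.36% of the reads. Scaling to them lowered the median of all genes at 240 min against 0 min to -0.12. Fold changes on that scale are printed as fitted and were tested against 0, not against that median. On that scale HMGCS1 (1.02) and IDI1 (0.80) passed in edgeR, with 7.65% of all genes called, and MVK (0.44), MVD (0.38), SQLE (0.27), FDFT1 (0.19) and CYP51A1 (0.14) stayed above 0 with adjusted p-values of 0.148 to 0.730. LSS was at -0.046 there, above the median of all genes, and FDPS at -0.25, below it.

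Ratios between enzymes of the same library do not depend on the scaling. HMGCS1 over FDPS was 1.83 to 2.09 (log2 of the count ratio) in the 8 libraries from 0 to 30 min and 3.08 to 3.14 at 240 min. IDI1 over FDPS was -0.080 to 0.18 and then 0.96 to 0.99, and IDI1 over LSS was 0.25 to 0.58 and then 1.11 to 1.18. These 3 ratios did not overlap between the early libraries and 240 min. They set the largest rises against enzymes that did not pass against 0 min. Their separation thus restates the fold changes above and is no separate support. FDPS over LSS moved the other way, from 0.33 to 0.43 down to 0.16 to 0.18, also without overlap. The share of such ratios over all pairs of genes was not computed. HMGCS1 and IDI1 thus changed unequally with FDPS, and IDI1 with LSS, whatever the scaling.

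On a scale per transcript length (TPM of the deposited StringTie tables), the order at 0 min was FDFT1 with 693 ± 106, FDPS 445 ± 62.1, HMGCS1 405 ± 56.9, SQLE 379 ± 30.1, CYP51A1 319.9 ± 35.3, IDI1 285 ± 33.3, LSS 112 ± 14.3, MVD 107 ± 18.3 and MVK 41.0 ± 4.45 TPM (SD, n = 2). Neighbours whose libraries overlapped were FDPS and HMGCS1, HMGCS1 and SQLE, CYP51A1 and IDI1, and LSS and MVD. At 240 min HMGCS1 stood at 916 ± 35.2 TPM and FDFT1 at 912 ± 4.54, IDI1 reached 551 ± 14.3, and FDPS remained at 417 ± 0.96. HMGCS1 thus came level with FDFT1, the most abundant of the 9 at 0 min. With limma on log2(TPM + 1), the median log2 fold change of the 9 at 240 min against 0 min was 0.42.

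Across the 10 libraries the enzymes other than FDPS varied together, given as a description over libraries that share their depth and times. The mean profile below includes each enzyme itself, so a high r with it is partly fixed in advance. The libraries at 240 min, where most of the enzymes rose, enter every r. Pearson r with the mean standardized profile of the 9 was 0.99 for FDFT1 and for MVD, 0.97 for MVK, 0.93 for SQLE and HMGCS1, 0.92 for CYP51A1, 0.91 for IDI1, 0.85 for LSS and 0.50 for FDPS. Pairs ranged from 0.099 (IDI1 and FDPS) to 0.996 (HMGCS1 and IDI1). Outside the lists used here, the 5 genes of 10387 nearest to the mean profile were ZHX3 (r = 0.986), RPS3A (0.971), SCD (0.964), PRPF4 (0.964) and AP1M2 (0.960). SCD, which desaturates fatty acids, measured 3485 and 2939 CPM at 0 min and 3782 and 3509 at 240 min. RPS3A, a ribosomal protein at 14.8 to 19.6 CPM at these times, has many processed copies in the genome, and its value is uncertain.

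Among 10 other enzymes of the pathway, 5 rose and 0 fell at 240 min against 0 min (edgeR, against 41% of all genes called and 20.6% as rises). MSMO1 (0.50) and NSDHL (0.50), which remove methyl groups after CYP51A1, SC5D (0.37), ACAT2 (0.28) and EBP (0.19) rose, with EBP overlapping between the libraries. PMVK (0.043), TM7SF2 (0.030), LBR (0.088), HSD17B7 (0.024) and DHCR7 (0.17) did not pass. Their median was 0.18, against 0.39 for the 9 and -0.0026 for all genes. At 0 min 9 of these 10 were higher in replicate 1 too, with a median gap of 0.21. Without replicate 1 at 0 min DHCR7 passed as well, which gave 6 rises, and without replicate 2 ACAT2 and EBP no longer passed, which left 3. Along the enzymes described here, values of 0.5 or more stood at HMGCS1, MVK, MVD and IDI1 and again at MSMO1 and NSDHL, with PMVK near 0 between them and values of -0.13 to 0.39 from FDPS to CYP51A1. MVD, MSMO1 and NSDHL lay close to 0.5. Without replicate 2 at 0 min, HMGCS1 (0.99) and IDI1 (0.79) stayed above 0.5. MVK (0.43) and MVD (0.32) then lay under it, with SQLE at 0.30. This division thus moved with the 0 min library used.

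**Figure D4:**
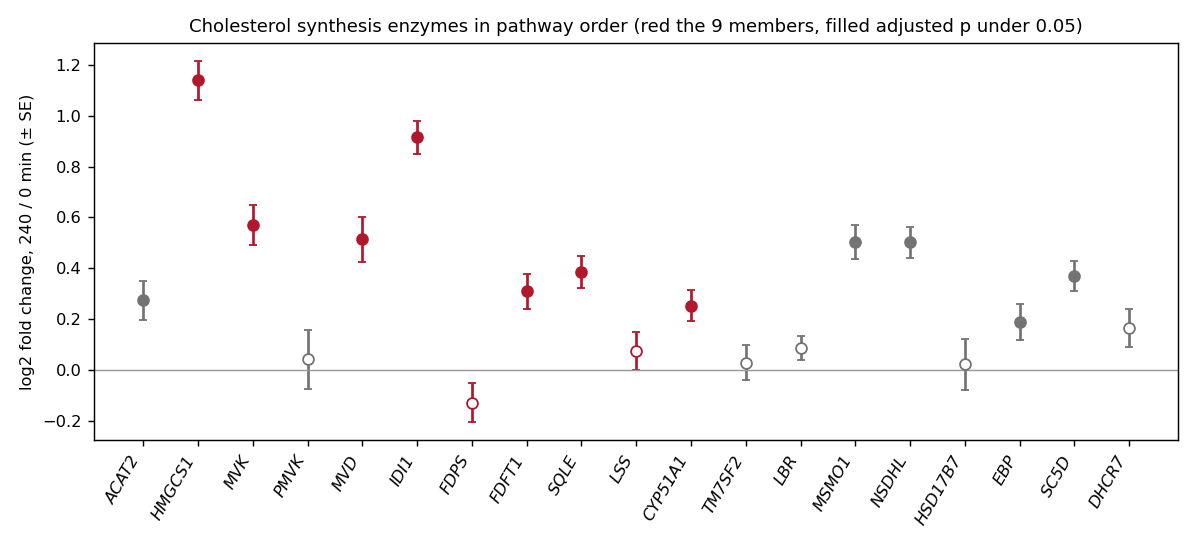
Log2 fold change at 240 min against 0 min (vertical axis, bars are SE, edgeR) of cholesterol synthesis enzymes ordered along the pathway, the 9 followed here in red and 10 others in grey, filled where the adjusted p was under 0.05. HMGCS1 and IDI1 are the highest of those plotted at 1.14 and 0.91, and FDPS is the lowest at -0.13.

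Of 9 enzymes that use the same isoprene units for other products, 4 rose and 1 fell at 240 min (edgeR, against 41% of all genes called and 20.6% as rises). PDSS1 (0.58), PGGT1B (0.56), NUS1 (0.34) and DHDDS (0.33) rose and PDSS2 (-0.23), the partner of PDSS1 in making the tail of ubiquinone, fell. Without replicate 1 at 0 min PDSS2 no longer passed, and the 4 rises passed with either 0 min library left out. Of 6 genes that sense sterol or process SREBP2, 5 were tested, and 0 rose and 4 fell, against 20.4% of all genes called as falls. INSIG2, which retains SREBP2, fell from 192 and 198 to 77.1 and 79.0 CPM (log2 -1.32, edgeR adjusted p = 2.45e-13). SCAP (-0.35), the escort of SREBP2, the protease gene MBTPS1 (-0.31) and SREBF2 (-0.17), which encodes SREBP2, fell too, and MBTPS2 was at 0.043. Without replicate 1 at 0 min SREBF2 no longer passed, which left 3 falls. INSIG1 had 1 to 5 counts in each library, few for a liver line, so its level is uncertain and it was not tested, and whether the annotation used for counting leaves out its reads was not tested.

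Of 1971 IR peaks, 1 lay within 5 kb of any of the 9 enzymes, at FDPS. It spans chr1:155278380-155278699 (hg19, 320 bases), ends inside the gene, and its part before the gene is the FDPS stretch printed above. Its score of 135 ranked 666 of 1971, with a median of 79, and 9 of 21 annotated FDPS transcripts start within it. Of 12743 genes with at least 10 counts in every library, 16.5% had a peak within 5 kb, and 1 of 9 enzymes did. FDPS was the enzyme with the lowest fold change at 240 min. The list comes from 1 library without a replicate, and no test of the enzymes was made on it.

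No enzyme overlapped another annotated gene on its own strand. On the other strand lay MIR4454 at HMGCS1, IDI2-AS1 at IDI1, RUSC1-AS1 at FDPS and CYP51A1-AS1 at CYP51A1, which the strand-aware counting keeps apart. FDFT1 lies at chr8:11653082-11696818 and SQLE at chr8:126010720-126034525 (hg19).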

How the data were processed

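The authors trimmed single-end reads with Trim Galore 0.6.4, aligned them to hg19 with STAR 2.6.1d, marked duplicates, counted reads per gene on the reverse strand with featureCounts 1.6.4 and deposited raw counts, and they deposited StringTie abundances in TPM. For the IR library the authors used BWA 0.7.17-r1188, MACS2 2.2.7.1 and HOMER and deposited peaks with a score. Whether marked duplicates were counted is not given in the sources used here.

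Here, counts were analysed in edgeR 4.0.16 (R 4.3.3) with TMM, filterByExpr by time and quasi-likelihood tests. All 10 libraries entered 1 model of time without a replicate block, with Benjamini-Hochberg adjustment over 13852 genes and a threshold of 0.05. SE is the fold change over the square root of F. The 92 ERCC rows (1.59% to 2.36% of reads) stayed out of library sizes. On simulated data for 240 min against 0 min with 200 changed genes of 13735, 217 were called and 200 of the changed genes were recovered. Of those calls 7.83% were false, at a threshold of 0.05. In the deposited data 5676 of 13852 genes passed in this comparison, and recovery with so many changed genes was not tested. The smallest p of an exact permutation test of 2 against 2 is 0.333, so none was run. The 9 enzymes and the other lists were chosen with earlier results of these data known. Named genes are the 9 enzymes, listed pathway genes, the paralog IDI2 and the 5 genes with the most similar profile, and some listed genes are not reported here. Alternatives were RLE and upper-quartile normalization, ERCC scaling, no filter, at least 10 counts in every library, a block, edgeR's likelihood ratio test, only the times compared, thinning, DESeq2 1.42.0, limma 3.58.1 on log2(TPM + 1), also for genes averaging 1 TPM or more, and on log2(TPM + 0.1), and each replicate left out. Promoter windows are from RefSeq (GRCh38.p14) and printed stretches from GRCh37.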

Additional observations from a re-analysis of the deposited data

How the results depend on the processing

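Of 13 alternatives besides left-out libraries, 12 kept the count of enzymes changed at 7 for 240 min against 0 min, and ERCC scaling gave 2 (4 against 30 min, in place of 8). With DESeq2 and limma on TPM the count against 30 min was 7. With no filter on low counts 2 enzymes passed at 5 min, 2 at 30 min and 5 at 30 min against 10 min, all as falls, in place of 0. The cause was not tested. With 1 library left out the count of enzymes ranged from 6 to 8 (240 min against 0 min), 7 to 9 (240 against 30 min) and 0 to 1 (30 against 0 min, where MVD passed at -0.46 without replicate 2 at 0 min), and was 0 in the other comparisons. The IR peak at FDPS stood under windows of 1 and 20 kb, above the median score and by nearest gene. No value that passed in the edgeR fit of all 10 libraries with TMM changed sign. With 1 library left out, some values that did not pass there took both signs. At 240 min against 0 min FDPS ran from -0.26 to 0.010 and LSS from -0.060 to 0.21. Against 30 min FDPS ran from -0.014 to 0.23.

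Counts over all genes moved more. With ERCC scaling they were 1059 (240 min against 0 min), 917 (240 against 30 min), 4 (30 against 0 min), 2 (5 against 0 min) and 5 (30 against 10 min), and the median of all genes shifted to -0.33 at 10 min, -0.13 at 30 min, -0.083 at 5 min and 0.20 for 30 against 10 min. The spike-in share at 10 min differed between the replicates (1.73% and 2.36%), and whether 1 library drives these shifts was not tested. Against 0 min at 30 min, in place of 46, there were 160 without a filter, 96 by the likelihood ratio test, and by limma 9 on log2(TPM + 1), 10 on log2(TPM + 0.1) and 8 for genes averaging 1 TPM or more. At 10 min, in place of 19, there were 74 without a filter, 43 by the likelihood ratio test, 40 with only the times compared, and by limma 4 on log2(TPM + 1) and 1 for genes averaging 1 TPM or more. At 5 min, in place of 0, there were 144 without a filter, 19 by the likelihood ratio test, 1 with only the times compared, 1 with DESeq2, and 7, 8 and 2 by the limma settings. For 30 against 10 min, in place of 1, there were 41, 8, 2 and 4 by the same settings, and 5, 11 and 3 by limma. Left-out libraries gave 18 to 46 at 30 min, 9 to 20 at 10 min, 0 to 22 at 5 min and 1 to 2 for 30 against 10 min.

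Replicate numbers were checked for pairing. Deviations of same-numbered libraries had r over 0.1 in 5 of 10 pairs of times (-0.354 to 0.318), so the numbers were not treated as pairs. A replicate block left the count of enzymes at 7 and 8 at 240 min and gave 1 gene at 5 min and 3 for 30 against 10 min.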
